A study of Drosophila melanogaster with 14 samples.

Results

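The genes described here are the noncoding RNA genes of the fruit fly Drosophila melanogaster that carry only a CR number as their name, measured in testes of 7 genotypes. A gene was taken when its name was CR followed by 5 digits in both gene annotations used for the tables, when its FPKM (a fragment count scaled to transcript length and to the library's total) was at least 1 in at least 2 of the 14 libraries, and when its locus spanned at least 300 bases. Of 1955 CR genes that could be joined between the annotations, 1176 met the rule, out of 16078 joined genes of all kinds. Another 662 were long enough but stayed under the FPKM limit, and 65 passed that limit but were too short. At the FPKM limit, CR44129 was the last gene inside, with a second-highest FPKM of 1.001, and CR45698 the first outside, with 0.9986. At the length limit, CR44200 spanned 300 bases and CR44298 spanned 299.

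Polyadenylated RNA came from testes of males 3 days old, kept at 23 °C, with 50 testes in a library and 2 libraries, called biological replicates, for each genotype. The genotypes were wild type (wt), which served as the control, 5 single mutants (bam, can, comr, mip40 and CG9879), and a double mutant of mip40 with bam (mip40/bam). The sources used here do not state alleles, strain backgrounds or whether a mutation came from 1 line. Since nothing else is said of how the replicates were made, p-values below measure the spread between these libraries.

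Male germ cells of the fly pass from dividing spermatogonia to spermatocytes, which switch on a large set of genes before meiosis, and then to spermatids. bam ends the spermatogonial divisions, so bam mutant testes collect spermatogonia. The proteins made by comr and mip40 belong to tMAC, the testis meiotic arrest complex, which turns on spermatocyte genes. The product of can is a testis-specific TAF, related to subunits of the general transcription factor TFIID. Mutants of these 3 genes make spermatocytes that arrest before meiosis and form no spermatids. Many long noncoding RNAs of the fly are found in the testis, and for most CR genes no function is known, so the members are described here by their level, place and neighbours.

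Sums of germ cell markers differed between the genotypes. The summed FPKM of 6 spermatogonial markers ran from 971 to 1276 in the 4 bam and mip40/bam libraries and from 62.1 to 172 in the other 10. The 7 spermatocyte markers summed to at most 120 FPKM in the first 4 libraries and to between 810 and 929 in the others. The 8 spermatid markers summed to between 24557 and 27879 FPKM in wt and CG9879, to between 3809 and 8384 in comr, can and mip40, and to at most 20.5 in bam and mip40/bam. Being present in mutants that form no spermatids, this list does not mark spermatids alone. The 6 markers of somatic hub and cyst cells summed to between 88.6 and 140 FPKM in bam and mip40/bam and to between 30.8 and 56.3 elsewhere, and their part in the results below was not tested. The transcript of CG9879 fell from 64.0 and 53.4 FPKM in wt to 0.756 and 1.30 in its mutant. The transcripts of comr (19.2 and 17.8 FPKM) and can (52.6 and 50.1 FPKM) were not lower in their own mutants than in wt (6.45 and 8.48 for comr, 15.7 and 15.4 for can), so their level does not check those labels. mip40 had 20.8 and 20.2 FPKM in its mutant and 22.8 and 20.9 in wt, but 25.8 and 27.4 in mip40/bam against 59.1 and 60.4 in bam. The bam transcript had 2.91 and 0 FPKM in its own mutant, a range that spans its 2.81 in wt 2 and lies under 3.14 in wt 1, so it does not check that label.

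The libraries comr 2, can 1, CG9879 2 and wt 1 stood apart: these 4 held between 2573 and 12670 summed FPKM of 9 accessory gland markers, against at most 288 in the other 10. All 9 markers were above 0 in these 4 libraries. Of the CR genes, 18 (1.53%) were higher by more than 1 on the log2 scale in each of these libraries than in the other replicate of its genotype, against 1.23% of protein-coding genes, and no CR gene differed by as much the other way. CR44389 had 1134 FPKM in comr 2 and 0 in comr 1, 271 and 3.36 in can 1 and 2, 0 and 236 in CG9879 1 and 2, and 134 and 0 in wt 1 and 2. CR43239 and CR43358 had the same pattern, with 279 and 264 FPKM in comr 2. Of these 18 genes at most 1 was called in any comparison below, so they carry little of the counts of called genes.

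Most of the 1176 genes stood apart from protein-coding genes. In the BDGP6.54 annotation, which held 1173 of them, 985 were long noncoding RNAs, 176 antisense RNAs, 4 pseudogenes and 6, CR43845 among them, are now annotated as protein-coding. The locus was short, with a median of 714 bases, and 722 genes (61.4%) had 1 exon. No protein-coding gene overlapped 754 members (64.1%), 202 lay inside the span of a coding gene without sharing an exon, 191 shared exon sequence with a coding gene on the opposite strand and 26 with one on the same strand. The sources used here do not say whether reads were assigned by strand, so reads of members with shared exons cannot be told apart from those of the partner. Chromosome arm 2L held 370 members (31.5%), against 19% of the 11355 protein-coding genes tested, and the X chromosome held 131 (11.1%), against 15.8%.

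CR genes were scarce in bam and mip40/bam testes and common in can, CG9879 and wt, with comr and mip40 between. The number of members with a mean of at least 1 FPKM was 167 in mip40/bam, 191 in bam, 377 in comr, 461 in mip40, 788 in can, 795 in CG9879 and 844 in wt. The median FPKM over all members was 0 in bam and mip40/bam, 0.202 in comr, 0.544 in mip40, 2.24 in can, 2.72 in CG9879 and 3.71 in wt. Between single libraries, members at 1 FPKM or more numbered 801 and 748 in can, 750 and 795 in CG9879, and 837 and 799 in wt, so can and CG9879 did not differ beyond the spread between their libraries. The counts were 294 and 404 in comr and 462 and 492 in mip40, 194 in both bam libraries, and 169 and 171 in mip40/bam. The share of protein-coding genes with a mean of at least 1 FPKM was also lowest in mip40/bam (68.2%) and bam (69.3%), and was 77.8% in comr, 82.7% in mip40, 89% in can, 82.4% in CG9879 and 83.5% in wt. For the members it was 14.2% in mip40/bam, 16.2% in bam and 71.8% in wt. The median of coding genes was 12.5 FPKM in bam and 9.98 in wt. In these bulk samples, fewer cells of a type and less RNA per cell cannot be told apart.

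Sorted by where a mean of at least 1 FPKM was first reached, 191 members (16.2%) were on in bam, 253 (21.5%) were off in bam and on in comr, and 532 (45.2%) were off in both but on in can or mip40. Among protein-coding genes these shares were 69.3%, 13.4% and 14.2%. A comr mean can rest on comr 2 alone, which held accessory gland transcripts, as for CR43239 (0.447 and 279 FPKM in comr 1 and 2). Of the 532, 336 reached 1 FPKM in can and not in mip40, 49 in mip40 and not in can, and 147 in both. A further 144 (12.2%, against 1.77% of coding genes) were off in bam, comr, can and mip40 and on in wt. Levels were low: the highest group mean of a member had a median of 8.42 FPKM, against 48.2 for coding genes, and a member at 1 FPKM or more rested on a median of 8 to 25.8 fragments in a library. At such depth a gene listed at 0 may still be present at a low level.

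**Figure D1:**
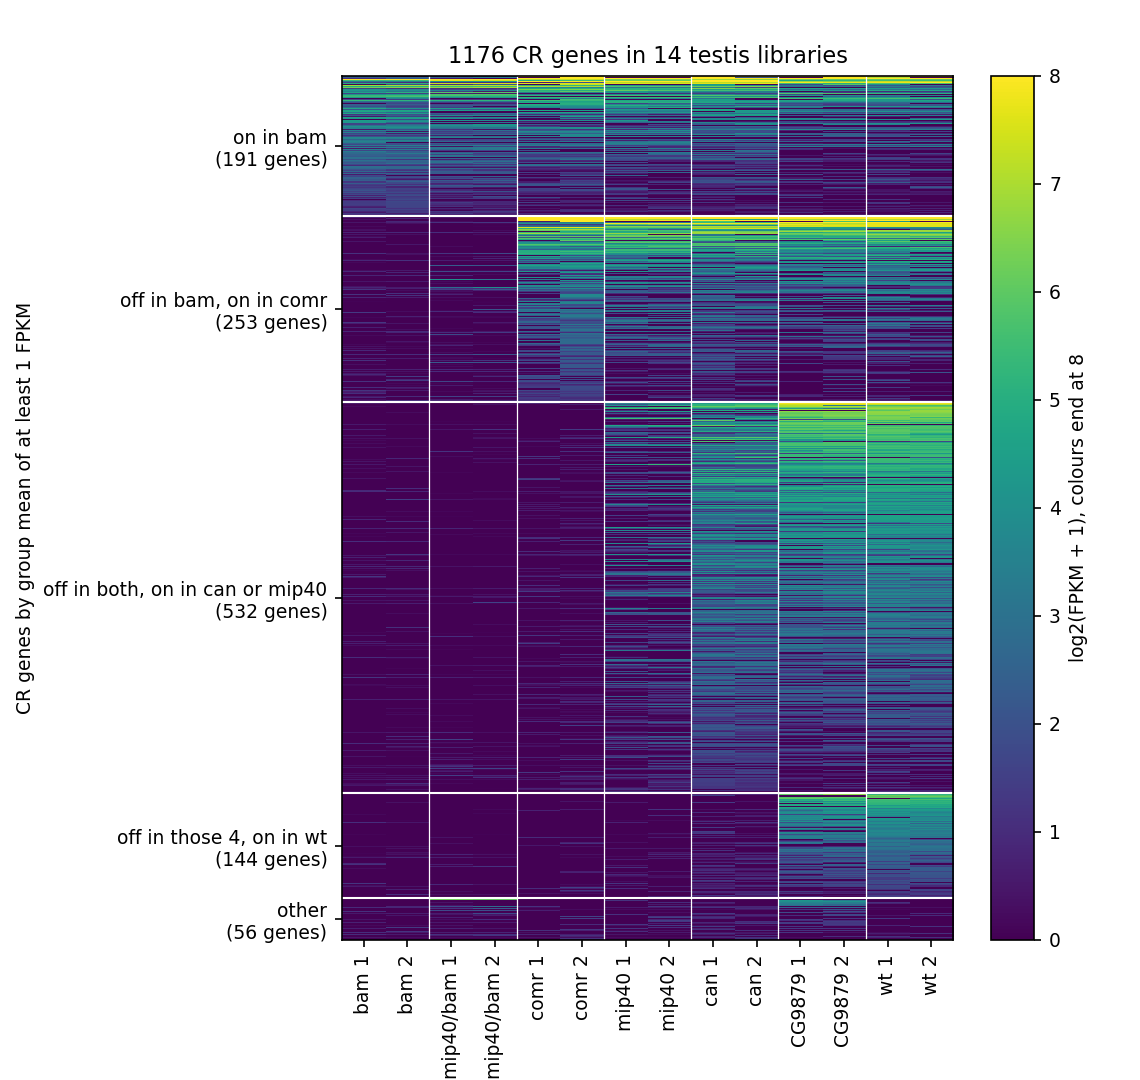
Heat map of the 1176 CR genes (rows) in the 14 libraries (columns), as log2(FPKM + 1) with colours ending at 8. Rows are grouped by the genotypes in which the mean reached 1 FPKM: 191 on in bam, 253 off in bam and on in comr, 532 off in both and on in can or mip40, 144 on in wt and off in those 4, and 56 others. Below the first block the bam columns are dark, with means under 1 FPKM, and the mip40/bam columns are dark in most rows. Exceptions in mip40/bam include CR45184 and CR44724, in the last block.

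Differences between genotypes were tested with limma on log2(FPKM + 1) over all 12971 genes that passed the FPKM limit, and a gene was called at a Benjamini-Hochberg adjusted p under 0.05. Against wt, 701 CR genes (59.6%) were lower and 116 (9.86%) higher in bam, where 34.4% of all genes tested were lower and 44.2% higher. In comr 633 members (53.8%) were lower and 167 higher, against 27.9% and 48.5% of all genes. In mip40 557 (47.4%) were lower and 159 higher, against 25.4% and 47.8%. In can 402 (34.2%) were lower and 229 higher, against 20.4% and 51.0%. The median difference of the members was -1.83 in bam, -1.27 in comr, -0.93 in mip40 and -0.07 in can, while that of all genes tested was 0.21, 0.59, 0.46 and 0.62. The 4 comparisons share the wt libraries.

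FPKM divides by all fragments of a library, and this choice mattered in the 4 comparisons of bam, comr, can and mip40 with wt. Scaling by the median of ratios shifted the median difference from wt of genes with means of at least 10 FPKM by -1.10 in bam, -1.21 in comr, -1.16 in can and -1.09 in mip40 (log2). With it, 728 members were lower and 87 higher in bam, against 46.1% and 29% of all genes, and 691 and 103 in comr, against 41.9% and 26.8%. Then 564 members (48%) were lower and 118 (10%) higher in can, against 38.8% and 23.7% of all genes, so that higher calls made up 17.3% of the members' calls in place of 36.3%. In mip40, 655 (55.7%) were lower and 89 (7.57%) higher, against 41.1% and 25.6%, and higher calls made up 12% in place of 22.2%. With quantile normalization higher calls made up 20.7% in can, where 25.5% of all genes were lower and 36% higher. All 701, 633, 402 and 557 members called lower in bam, comr, can and mip40 were called lower under median-of-ratios scaling as well. That scaling shifts these mutants down against wt, so it could hardly remove such calls. Of the members called higher, 1, 9, 12 and 8 were called lower with it. With quantile normalization 638, 581, 388 and 526 of the lower calls in bam, comr, can and mip40 were kept, and 4 of those in bam turned to higher. Of all genes, 29.4% were then lower and 51.4% higher in bam, 25.4% and 50.6% in comr, and 24.7% and 44.5% in mip40.

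The arrest mutants were also compared with each other and with bam, in comparisons that share libraries. Comparing can with bam, 666 members (56.6%) were higher and 77 lower, against 47.5% and 27.1% of all genes tested. Comparing comr with bam, 204 (17.3%) were higher and 75 lower, against 34.7% and 25%. Comparing comr with can, 548 (46.6%) were lower in comr and 101 higher, against 32.0% and 22.7%. With quantile normalization, higher calls made up 69.4% in place of 89.6% for can against bam, where 31.1% of all genes were then higher and 43% lower. They made up 55.8% in place of 73.1% for comr against bam, with 26% of all genes higher and 35.4% lower. For comr against can they made up 35.8% in place of 15.6%, with 37.4% of all genes higher and 22.5% lower.

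**Figure D2:**
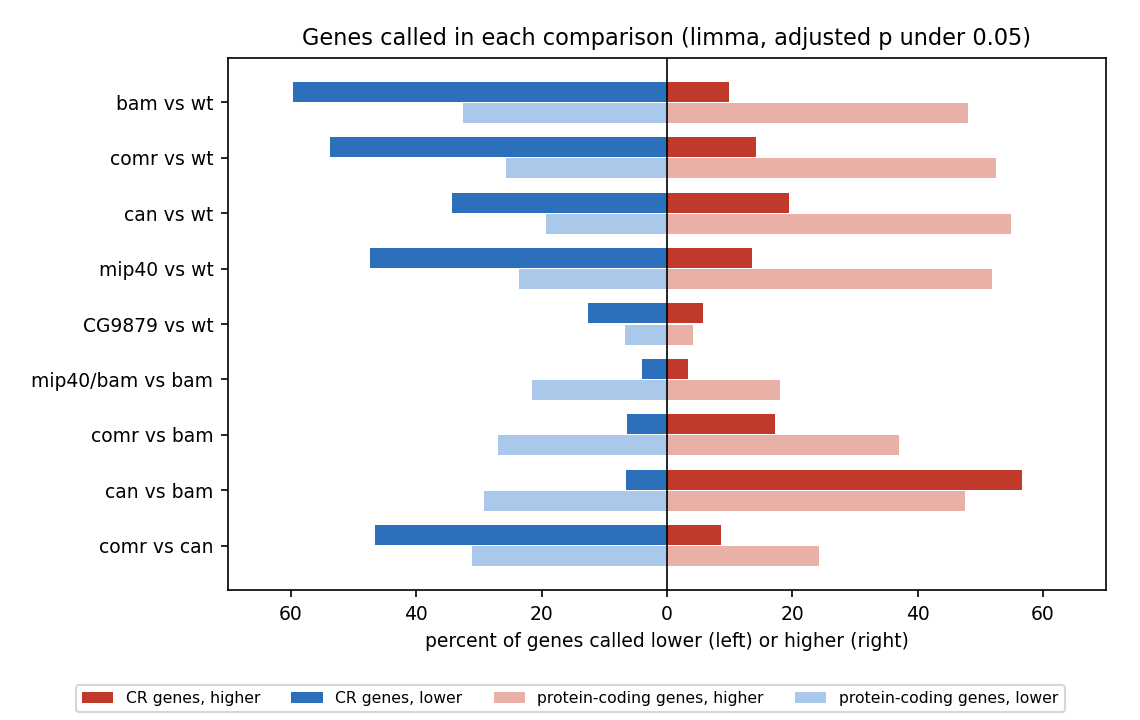
Percent of the 1176 CR genes and of the 11355 protein-coding genes called lower (left) or higher (right) in each of 9 comparisons (limma, adjusted p under 0.05). CR genes called lower outnumber those called higher in bam (59.6% and 9.86%), comr, can and mip40 against wt, while coding genes called higher outnumber those called lower there.

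Of the 6 members named for the largest fall from wt to bam, 5 were RNAs of the X chromosome that were already high in the spermatocyte arrest mutants. CR32657 (dm6 chrX:12087211-12087695) had 4.19 and 0 FPKM in bam, 2348 and 2458 in comr, 1794 and 1890 in mip40, 1123 and 1213 in can, and 3409 and 3016 in wt. CR32658 (chrX:12091264-12092272), its neighbour on the same strand, had 0.731 and 0 FPKM in bam, 1116 and 1220 in comr, 1487 and 1572 in mip40, 664 and 669 in can, and 1842 and 1794 in wt. The bam libraries lay below those of these 4 genotypes for both genes, and the CG9879 libraries (3287 and 2990, and 1719 and 1810 FPKM) were close to wt. On the log2(FPKM + 1) scale CR32657 was lower in bam than in wt by -10.46 ± 0.58 (SE, adjusted p = 1.06e-07) and CR32658 by -10.43 ± 0.22 (adjusted p = 9.30e-11). Both lie within the span of Ten-a, which encodes a teneurin, a cell-surface protein, and share no exon with it. Their whole loci, of 485 and 1009 bases, also overlap the noncoding gene CR43960. That gene had a mean of 0.528 FPKM in can and was listed at 0 in the other genotypes. Exons shared with CR43960 are not reported here.

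CR32661 (chrX:11917806-11918678) had 0.556 and 0 FPKM in bam, 717 and 628 in comr, 726 and 785 in mip40, 340 and 327 in can, and 1259 and 1233 in wt. It was lower in bam by -9.97 ± 0.17 (adjusted p = 2.86e-11), and the can libraries lay below those of comr and mip40. CR32690 (chrX:10204400-10205289) had 0.648 and 0 FPKM in bam, 667 and 595 in comr, 1092 and 1185 in mip40, 369 and 283 in can, and 821 and 850 in wt. It was lower in bam by -9.35 ± 0.22 (adjusted p = 2.15e-10). The whole locus of CR32690, of 890 bases, overlaps the noncoding gene CR44894, which was listed at 0 in every library. CR43157 (chrX:11919125-11919657), which lies next to CR32661, had 0 and 0.740 FPKM in bam and between 252 and 611 in the 6 libraries of comr, can and mip40, a range that spanned its wt levels of 512 and 514. Its difference in bam was -8.61 ± 0.25 (adjusted p = 9.20e-10).

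These genes lie close together, and a level set drawn after the values were seen shows how many there are. Of the members, 8 had a mean under 5 FPKM in bam and at least 100 in comr, can and mip40 alike, and all 8 lie on the X chromosome between 9 and 13 Mb, a stretch with 27 members and 325 protein-coding genes tested. Among protein-coding genes, 170 met the same level rule, 34 of them (20%) on the X chromosome and 9 in that stretch. Without the limit in can and mip40, 15 members met the rule, 9 of them (60%) on the X chromosome and 8 in the stretch. Among the 15 were CR43239, CR43358 and CR44389, with 279, 264 and 1134 FPKM in comr 2, which held accessory gland transcripts. In comr 1 they had 0.447, 8.21 and 0 FPKM, so their place in this set rests on comr 2. For coding genes this looser rule gave 244, with 40 (16.4%) on the X chromosome. The stretch too was chosen after the values were seen. The others of the 8 members under the first rule were CR42767, CR42657 and CR32660. CR42657 was listed at 0 in each bam and each mip40/bam library and had between 207 and 318 FPKM in the other 10, and in mip40 it was lower than in wt by -0.40 ± 0.05 (adjusted p = 9.29e-05). CR42767 had 1.08 and 3.03 FPKM in bam, 0.400 and 0 in mip40/bam, and between 341 and 747 in the other 10. Among comr, can and mip40, the can libraries were lowest, without overlap, for CR32657, CR32658, CR32661, CR32690, CR43157 and CR42767, and the mip40 libraries for CR42657.

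CR32660 (chrX:11920004-11920574) stood out by its level in comr and can. It was listed at 0 in bam and mip40/bam and had 99.3 and 125 FPKM in wt, 119 and 120 in mip40, 112 and 107 in CG9879, 669 and 719 in can, and 1732 and 1727 in comr. It was higher than in wt by 3.94 ± 0.09 in comr (adjusted p = 5.11e-10) and by 2.62 ± 0.09 in can (adjusted p = 2.72e-08), with no overlap between these groups. The member shares 442 exon bases on the same strand with the coding gene Sclp, which was listed at 0 in comr, can and mip40 and had means of 12.2 FPKM in bam and 10.4 in wt. Their reads cannot be told apart with certainty.

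**Figure D3:**
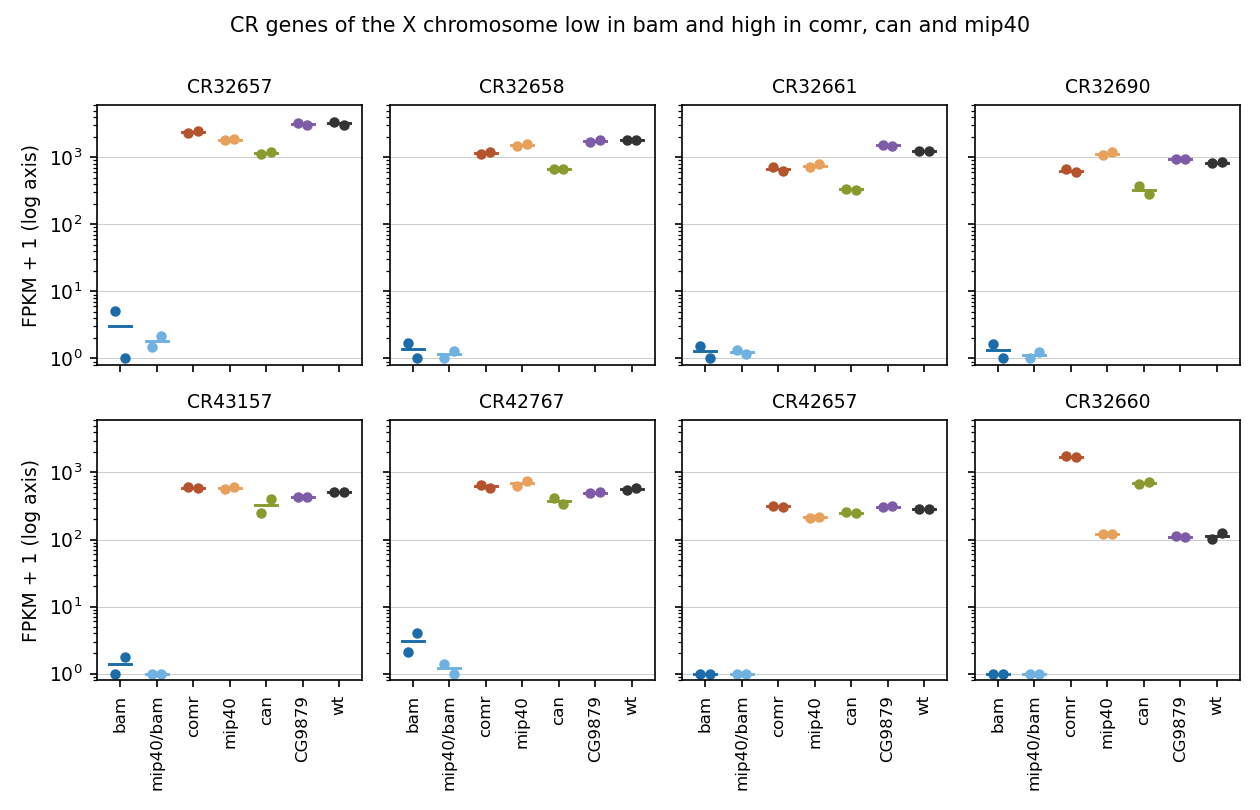
FPKM + 1 on a log axis for 8 CR genes of the X chromosome in the 7 genotypes, with a point per library and a bar at the mean of 2. In bam and mip40/bam the points sit at or below 4.19 FPKM (CR32657 in bam 1), while the libraries of the other 5 genotypes lie above 99 FPKM, with CR32660 highest in comr (1732 and 1727 FPKM).

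Other members were missing or scarce in comr and present in can. CR44455 (chr2R:23127604-23128077) was listed at 0 in bam, mip40/bam and comr, and had 243 and 265 FPKM in mip40, 325 and 262 in can, 471 and 517 in CG9879 and 522 and 485 in wt. It was called lower in bam (adjusted p = 3.31e-12) and in comr (adjusted p = 1.25e-11) than in wt, and lower in comr than in can (adjusted p = 3.98e-11); no fold is given against groups listed at 0. CR32835 (chr2R:22951148-22953800) had 0.395 and 0.306 FPKM in comr, 10.2 and 11.8 in mip40, 106 and 128 in can, and 419 and 376 in wt. The 4 genotypes did not overlap, and it was lower than in wt by -8.20 ± 0.18 in comr (adjusted p = 2.67e-10), by -5.06 ± 0.18 in mip40 (adjusted p = 1.46e-08) and by -1.76 ± 0.18 in can (adjusted p = 1.26e-05).

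CR43845 (chr3R:5522299-5523120), now annotated as protein-coding, went the same way. Its FPKM was 0.633 and 0 in comr, 9.75 and 12.97 in mip40, 18.8 and 25.8 in can and 223 and 214 in wt, and the difference in comr was -7.42 ± 0.24 (adjusted p = 3.26e-09). CR43876 (chr3L:20265598-20266200) followed with 0 and 0.592 FPKM in comr, 3.64 and 7.98 in mip40, 35.9 and 40.6 in can and 155 and 144 in wt. In these 3 genes comr was lowest, mip40 next, can above it and wt highest, without overlap between neighbouring genotypes. CR44490 (chr2L:10886454-10887199) broke the order, with 0 in comr, 45.2 and 37.7 in mip40, 11.9 and 10.8 in can and 115.4 and 103.8 in wt, and it was also lower in CG9879 (21.0 and 7.51 FPKM, -3.01 ± 0.35, adjusted p = 6.73e-04).

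CR43905 (chr2R:6532595-6533595) was at its wt level in can and nearly missing in comr and mip40. It was listed at 0 in comr, had 0.275 and 0 FPKM in mip40, and had 67.1 and 66.5 in can, within the range of its 75.2 and 64.9 in wt. It was lower in mip40 than in wt by -5.97 ± 0.14 (adjusted p = 1.23e-09), while its difference in can was -0.06 ± 0.14 (adjusted p = 0.715). CR33218 (chrX:2330159-2330826) was low in comr (0.529 and 3.14 FPKM) and high in mip40 (137 and 140), can (144 and 127) and wt (222 and 254). Its difference from wt was -6.57 ± 0.38 in comr (adjusted p = 1.74e-07) and -0.81 ± 0.38 in can (adjusted p = 0.0828). CR44903 (chr2L:18523271-18523941) was listed at 0 in comr and mip40, had 35.7 and 44.5 FPKM in can, 17.6 and 18.95 in wt and 1.85 and 4.88 in CG9879.

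Other members were low in all of the arrest mutants. CR44071 (chr2R:7343345-7343695), which shares exon sequence with Dscam1 on the opposite strand, was listed at 0 in the 10 libraries of bam, mip40/bam, comr, can and mip40. It had 159 and 142 FPKM in wt and 118 and 263 in CG9879, and was called lower than wt in comr (adjusted p = 1.59e-08), can (5.14e-08) and mip40 (3.50e-08). CR43821 (chr2L:2797832-2798321), inside Syt1, was listed at 0 in the same 10 libraries and had 66.4 and 49.5 FPKM in wt and 57.6 and 61.3 in CG9879. CR44674, CR45056 and CR43810 were at or under 0.495 FPKM in the 2 can libraries, had 65.0 to 105 in wt, and kept 2.13 to 21.9 FPKM in mip40. CR44073, CR43289 and CR45653 showed the reverse, being listed at 0 in both mip40 libraries with 1.87 to 14.7 FPKM in can and 65.6 to 101 in wt, and CR44611 was listed at 0 in mip40 with 1.86 and 0.488 in can. CR44493 (chr2L:10943272-10943622), inside dpr2, had 0 and 1.79 FPKM in mip40 against 202 and 140 in wt (-6.66 ± 0.45, adjusted p = 7.67e-07).

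**Figure D4:**
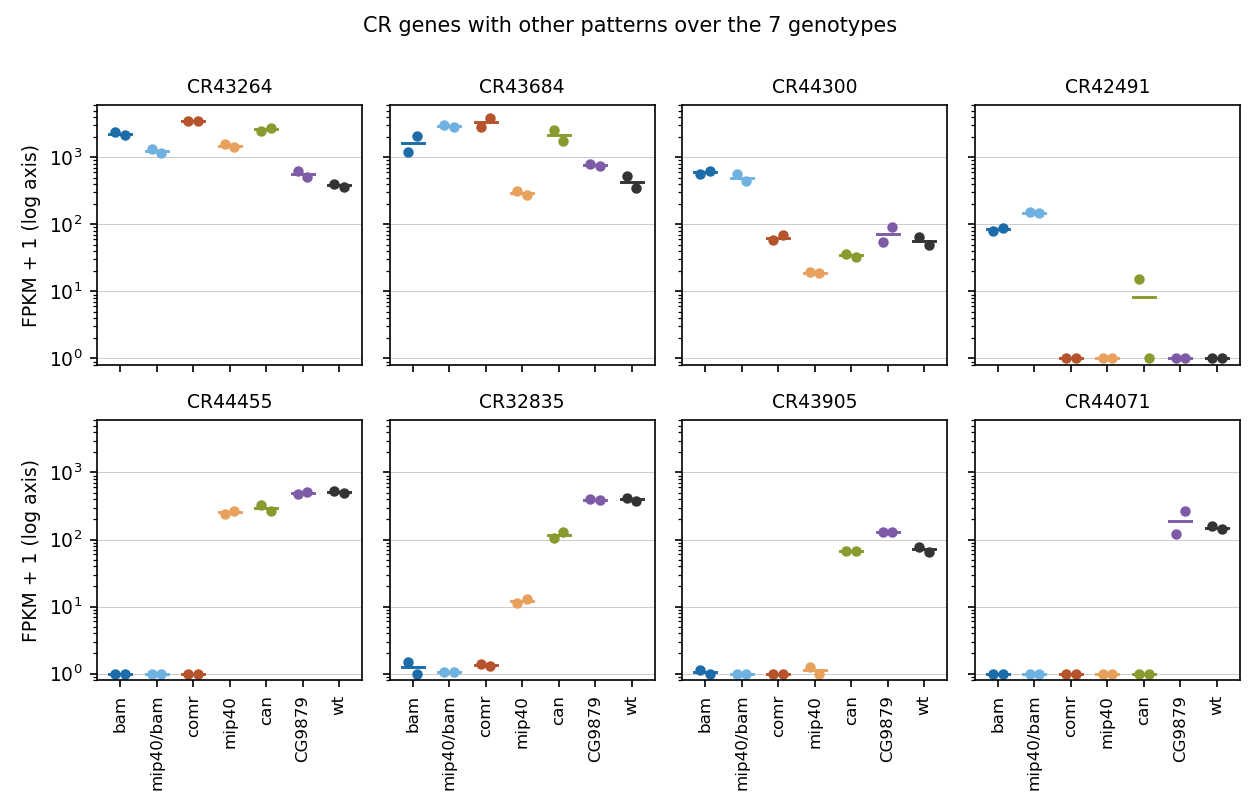
FPKM + 1 on a log axis for 8 further CR genes in the 7 genotypes, with a point per library and a bar at the mean of 2. CR43264 and CR43684 are present in all 14 libraries, CR44300 and CR42491 are highest in bam and mip40/bam, and the lower row shows genes at or under 0.493 FPKM in bam (CR32835 in bam 1) that are high from different genotypes on, from CR44455 (0 in comr) to CR44071 (0 in comr, mip40 and can).

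Fewer members were higher in testes of the arrest mutants than in wt. CR43835 (chrX:7500443-7501383) had 97.9 and 119 FPKM in comr, 26.4 and 18.2 in can, 9.46 and 3.37 in mip40, and 0 and 3.80 in wt, and was higher in comr by 5.64 ± 0.64 (adjusted p = 2.50e-05). CR44330 (chr3R:8089757-8090285) had 136 and 125 FPKM in comr, 75.02 and 89.93 in can, 52.5 and 58.0 in mip40, 29.5 and 34.9 in bam, and 10.2 and 2.42 in wt. Its libraries from comr, can, mip40 and bam lay above those of wt, by 4.41 ± 0.42 in comr (adjusted p = 6.86e-06) and 2.42 ± 0.42 in bam (adjusted p = 4.77e-04). CR45577, CR45471 and CR44126 rose in comr by 4.57 ± 0.41 (adjusted p = 4.49e-06), 3.98 ± 0.46 (2.55e-05) and 3.91 ± 0.46 (2.94e-05), from at most 2.66 FPKM in wt to 26.2 or more in comr.

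In can, 2 antisense RNAs appeared in that genotype and hardly elsewhere. CR45133 (chr2R:10152717-10154345), antisense to exons of KCNQ, a potassium channel gene, had 34.3 and 25.4 FPKM in can and was listed at 0 in the other 12 libraries. CR44238 (chr3R:17126984-17127862) had 30.1 and 31.5 FPKM in can, 0.629 in CG9879 2, and 0 in the other 11. Both passed the FPKM limit only through the can libraries, as did CR43820 and CR44352, so their calls follow from that choice and no p is given. CR43881 (chr3L:4755605-4756142) had 172 and 192 FPKM in can, 33.9 and 41.0 in comr, 31.6 and 22.3 in mip40, 5.58 and 9.17 in wt, and 0 in bam. It was higher than in wt by 4.48 ± 0.25 in can (adjusted p = 2.86e-07) and by 2.23 ± 0.25 in comr (adjusted p = 2.13e-05). Between comr and can, CR44175 (chr3R:19326816-19327560) had 45.2 and 59.2 FPKM in comr, 28.0 and 39.1 in mip40, 39.2 and 30.3 in wt, and 3.69 and 0.892 in can. It was higher in comr than in can by 4.15 ± 0.38 (adjusted p = 1.33e-05), and can alone lay below wt. CR44176 had 13.01 and 13.44 FPKM in comr and 0.302 and 0.336 in can (3.43 ± 0.14), and CR45233 had 11.7 and 14.4 in comr, 0 in can and wt, and 19.9 and 13.2 in bam. CR43820 and CR44352 had 18.1 and 22.8 and 16.8 and 21.3 FPKM in can, and were listed at 0 in both wt libraries.

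Of the members higher in mip40, CR43824 had 21.9 and 27.8 FPKM there, 12.3 and 8.01 in can, 8.80 and 8.10 in comr, and 0 in wt and CG9879 (adjusted p = 4.42e-08 for mip40 against wt). It shares exon sequence on the opposite strand with CG34124, which had a mean of 36.9 FPKM in wt and 0.712 in mip40. CR44633 rose by 4.33 ± 0.43 (adjusted p = 1.10e-05), from 0.631 and 1.18 FPKM in wt to 27.2 and 49.9. CR44069, with 15.6 and 12.5 FPKM in mip40, was listed at 0 in all libraries but those of mip40 and comr (1.98 and 1.49). CR44889, CR44294 and CR43973 had 11.5 to 18.02 FPKM in mip40, at most 0.719 in wt, and 8.44 to 18.8 in bam, so these 3 were not particular to mip40 by their levels.

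Members that were highest in spermatogonia-rich testes were few: 116 had their highest group mean in bam or mip40/bam, 475 in comr, can or mip40, and 585 in wt or CG9879. These were 9.86%, 40.4% and 49.7% of the members, against 35.3%, 43.4% and 21.3% of protein-coding genes. CR44300 (chr2R:10785714-10786026) had 560 and 634 FPKM in bam and 559 and 439 in mip40/bam, against 17.8 to 90.9 in the other 10 libraries. It overlaps the span of CG33144 without sharing an exon. It was higher in bam than in wt by 3.40 ± 0.24 (adjusted p = 6.43e-07) and lower in mip40 than in wt by -1.57 ± 0.24 (adjusted p = 2.39e-04). CR42862 (chr3L:224106-230964) had 456 and 505 FPKM in bam, 241 and 254 in mip40/bam, and 62.3 to 151 elsewhere. It showed a rise of 2.89 ± 0.11 in bam over wt (adjusted p = 7.24e-09). The member shares exon sequence on the same strand with CG33229, which was listed at 0 in every library, and their reads cannot be told apart with certainty.

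CR42491 (chrX:762615-763810) had 77.8 and 88.1 FPKM in bam, 150 and 147 in mip40/bam and 14.5 in can 1, and was listed at 0 in the other 9 libraries. It shares 377 exon bases on the same strand with RpL22, a ribosomal protein gene whose mean was 354 FPKM in bam and 36.9 in wt, and their reads cannot be told apart with certainty. CR45523 (chrX:15691867-15692597), which overlaps no coding gene, had 49.3 and 43.8 FPKM in bam, 29.15 and 29.96 in mip40/bam, and at most 3.34 elsewhere (4.66 ± 0.26 in bam, adjusted p = 1.06e-07). CR44237 (chr3R:14109286-14110726) fell stepwise by genotype, with 61.5 and 59.6 FPKM in bam, 15.38 and 14.95 in comr, 12.2 and 7.37 in mip40, 4.57 and 3.11 in can and 1.80 and 2.25 in wt. CR43957, CR44381 and CR42549 were higher in bam by 4.42 ± 0.78 (adjusted p = 5.04e-04), 4.36 ± 0.58 (7.24e-05) and 4.22 ± 0.89 (0.00170), and all 3 share exon sequence with a coding gene.

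The pair with the highest mean level in spermatogonia-rich testes was also present in every other genotype. CR43264 (chrX:5831898-5832215) had 398 and 365 FPKM in wt, 2385 and 2146 in bam, 1566 and 1405 in mip40, 2446 and 2763 in can, and 3498 and 3433 in comr. It was higher than in wt by 2.57 ± 0.12 in bam (adjusted p = 2.27e-08), 3.18 ± 0.12 in comr (8.11e-09), 2.77 ± 0.12 in can (6.41e-08) and 1.96 ± 0.12 in mip40 (3.38e-07). CR43684 (chr3L:15062207-15062622) had 521 and 345 FPKM in wt, 1204 and 2083 in bam, 311 and 273 in mip40, 2562 and 1726 in can, and 2874 and 3849 in comr. It rose in bam by 1.90 ± 0.30 (adjusted p = 2.39e-04) and in comr by 2.97 ± 0.30 (9.94e-06), but its difference in mip40 was -0.54 ± 0.30 (adjusted p = 0.134). Against bam, mip40/bam had less CR43264 (1311 and 1175 FPKM, -0.87 ± 0.12, adjusted p = 4.02e-04) and more CR43684 (3021 and 2824 FPKM, 0.88 ± 0.30, adjusted p = 0.0463).

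CG9879 mutants were the closest to wt. Of the members, 148 (12.6%) were lower and 68 (5.78%) higher, against 7.24% and 4.26% of all genes tested. The count depends on the fit: with only the 4 libraries of these genotypes, 32 were lower and 18 higher, and the 4 CG9879 and mip40/bam libraries use another annotation than wt, a difference that cannot be told apart from genotype. CR31144 (chr3R:11222414-11223029), on the strand opposite to exons of RpL3, was listed at 0 in the 12 libraries of all mutants and had 60.6 and 69.0 FPKM in wt. It passed the FPKM limit only through wt, so its calls follow from that choice. RpL3, a ribosomal protein gene, had a mean of 167 FPKM in wt, its lowest, and 2295 in bam. CR45408 (chr3L:9222024-9222433) was listed at 0 in CG9879 and had 59.6 and 105 FPKM in wt and 28.5 and 26.1 in can.

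CR45022, which also passed the limit only through wt, was listed at 0 in CG9879 and had 76.3 and 54.4 FPKM in wt. In the other direction CR43839 (chr2L:19470844-19471627), with no overlapping coding gene, had 61.3 and 68.9 FPKM in CG9879, 17.9 and 22.0 in can and 0 in both wt libraries (adjusted p = 4.78e-08 for CG9879, 3.95e-08 for can). CR44411 had 16.9 and 19.3 FPKM in CG9879 and 1.497 and 2.227 in can, and CR43872 had 14.7 and 15.8 in CG9879 alone. CR43872 passed the limit only through CG9879 and overlaps the exons of CG6597 on the same strand.

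Few CR genes differed between mip40/bam and bam. Of the members, 46 (3.91%) were lower and 40 (3.40%) higher in mip40/bam than in bam, against 19.7% and 16.4% of all genes tested; 592 members were listed at 0 in all 4 libraries, which leaves no room for a call. Without the second mip40/bam library the counts were 29 and 26. CR45184 (chr3L:826720-830190) had 74.0 and 67.1 FPKM and CR44724 (chr2R:21297495-21298495) 31.5 and 33.3 in mip40/bam, and both were listed at 0 in the other 12 libraries, so they passed the limit only through mip40/bam and their calls follow from that. CR45184 shares exon sequence on the same strand with CG13900, whose mean was 176 FPKM in bam and 106 in mip40/bam, and CR44724 shares it on the opposite strand with CG42672. CR45600 had 17.98 and 15.71 FPKM in bam and 10.3 and 8.91 in mip40, CR44029 had 11.3 and 9.36 in bam, and CR44083 had 24.96 and 21.77 in bam, and all 3 were listed at 0 in mip40/bam. Each of these 5 shares exon sequence with a coding gene, and the annotation of the mip40/bam libraries differs from that of bam.

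CR44134 went from 0 in bam to 15.4 and 7.21 FPKM in mip40/bam, and its call is lost without the first mip40/bam library (3.04, adjusted p = 0.0689). A test of whether mip40 acts differently with and without bam called 532 members (45.2%) in the positive and 140 (11.9%) in the negative direction, against 25.9% and 44.1% of all genes tested. Of the 532, 507 (95.3%) had means under 1 FPKM in both bam and mip40/bam and 522 had a lower mean in mip40 than in wt, so for these the term largely restates the comparison of mip40 with wt. Of the 140, 67 (47.9%) were under 1 FPKM in both and 133 had a higher mean in mip40 than in wt. With median-of-ratios scaling 607 members were called in the positive and 82 in the negative direction, against 40.3% and 22.7% of all genes.

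CR genes inside or across coding genes had correlations with them around 0. Over the 7 group means of log2(FPKM + 1), the correlation between a member and an overlapping coding gene had a median of 0.10 in 203 pairs with no shared exon and -0.01 in 206 pairs with one, close to 0.10 and 0.05 in 965 and 1419 coding-coding pairs. These are descriptions over 7 points that share libraries. In bam against wt both genes of 126 pairs with no shared exon were called, with the member lower and the neighbour higher in 66, both lower in 37, both higher in 16 and the member higher in 7. Opposite pairs made up 57.9%, against 53.1% in coding-coding pairs. In comr they made up 63.9% against 49.8%, in can 63.6% against 51.3% and in mip40 59.5% against 54.3%. With a shared exon the shares were 50.5% against 44.4% in bam, 52.6% against 34.3% in comr, 61.4% against 28.3% in can and 55.1% against 32.6% in mip40. The share of opposite pairs also depends on how often each kind of gene was called lower or higher. In bam against wt 59.6% of members were lower and 9.86% higher, while 32.5% of coding genes were lower and 48% higher. The shares of member pairs and coding-coding pairs are therefore not directly comparable, and no link between neighbours is read from them. The comparisons share the wt libraries, and the differences between these shares were not tested.

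The pairs of CR44170, CR43845, CR43905 and CR33218 were named for opposite calls in bam or comr against wt, so their opposite patterns partly follow from that choice. CR44170 and vimar, an armadillo repeat gene on the opposite strand, were the pair with the strongest opposite pattern among those named. CR44170 (chr2R:6979496-6980195) had 18.3 and 19.9 FPKM in wt, 0.728 and 0.891 in bam, 1.66 and 3.32 in can, and 0.329 and 0.490 in comr, while vimar had means of 52.1 FPKM in bam, 34.2 in comr and 17.8 in can and was listed at 0 in wt and CG9879. The correlation was -0.97 over the 7 means, and both were called in bam against wt (CR44170 by -3.47 ± 0.23, adjusted p = 4.50e-07). It leans on the 0 listed for vimar in wt and CG9879, which can be a failed estimate. CR43845 lies within Itp-r83A, which encodes the receptor for inositol trisphosphate, on the opposite strand, and also overlaps Nmdar1, a glutamate receptor gene. Nmdar1 had means of 0.13 FPKM in bam, 0.0543 in comr, 0.451 in mip40, 5.88 in can, 6.35 in mip40/bam, 1.14 in CG9879 and 1.89 in wt, so it was low in bam, comr and mip40 with CR43845 but high in mip40/bam and can. Itp-r83A had a mean of 11.9 ± 0.39 FPKM (SD, n = 2) in bam and 1.10 ± 0.06 in wt, the reverse of CR43845 (correlation -0.85). CR43905 and jing, a zinc finger gene, had a correlation of -0.71, with jing at 28.3 ± 4.62 FPKM in bam and 1.74 ± 0.09 in wt. CR33218 lies in the span of phl, the fly Raf kinase gene, which rose in comr by 1.92 ± 0.12 where CR33218 fell.

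Opposite calls in 1 comparison did not always go with a negative correlation over the 7 means. CR44903 and CG10211, named for opposite calls in comr against wt, had a correlation of 0.26. CG10211 was high in comr (mean 28.1 FPKM) where CR44903 was listed at 0, but both were low in bam. Ten-a, which holds the highly expressed CR32657 and CR32658, had means between 0.364 and 5.08 FPKM in the 7 genotypes, and its correlation with them was 0.08 and 0.10. Both pairs were among those named for opposite calls in bam against wt. The rise of Ten-a in bam over wt (0.63 ± 0.16, adjusted p = 0.00531) turned to -0.09 under median-of-ratios scaling. CR44474, inside sm, an RNA-binding protein gene, stayed at or under 1.97 FPKM in all libraries while sm had means of 21.0 FPKM in bam and 1187 or more in comr, can, mip40, CG9879 and wt.

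**Figure D5:**
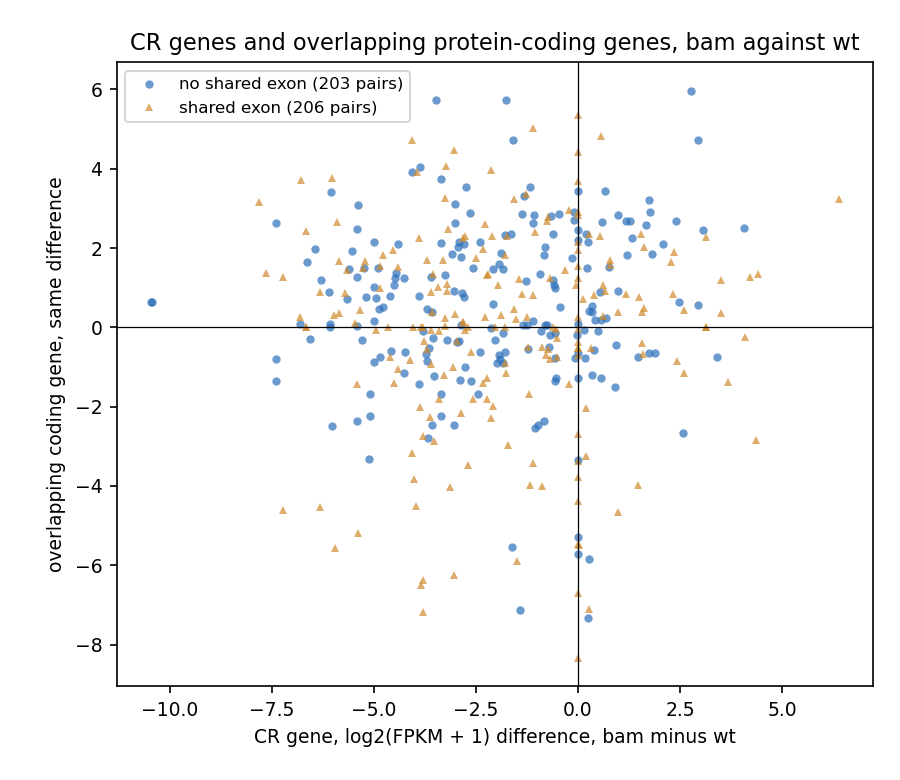
Difference between bam and wt in log2(FPKM + 1) for CR genes (horizontal axis) and the protein-coding genes they overlap (vertical axis), for 203 pairs with no shared exon and 206 with one. Pairs in the upper left, where the CR gene is lower and the neighbour higher in bam, include 66 pairs without a shared exon in which both genes were called.

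Members next to, but not overlapping, a coding gene within 1000 bases were more alike with it when the starts faced away from each other. The median correlation over the 7 means was 0.52 for 125 divergent pairs, 0.40 for 173 pairs on the same strand and 0.24 for 91 convergent pairs. Coding-coding pairs had 0.57, 0.37 and 0.31, so the order was shared with genes of any kind.

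The share of members on the X chromosome differed between classes of highest level. Of the 116 members highest in bam or mip40/bam, 29 (25%) lay on the X chromosome, of the 475 highest in comr, can or mip40 64 (13.5%), and of the 585 highest in wt or CG9879 38 (6.5%). Coding genes in the same classes had 19.4%, 15.7% and 10% on the X chromosome. In bam against wt 64 of 131 X-linked members (48.9%) were lower and 30 (22.9%) higher, and of 1045 autosomal members 637 (61%) were lower and 86 (8.23%) higher. Coding genes were also more often higher on the X chromosome (57.1%) than on the autosomes (46.4%). Members highest in wt or CG9879 had 1 exon in 64.9% of cases and those highest in bam or mip40/bam in 50.9%, and shared an exon with a coding gene in 18% and 28.4%.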

How the data were processed

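Testis RNA of 14 libraries was prepared with a TruSeq kit and sequenced on a MiSeq, per the labels' protocols. For each library the authors deposited gene-level FPKM values, made with TopHat and Cufflinks, per the submitters' processing notes, which name the builds dm3 and dm6. The sources used here give no versions and do not say whether strand was used. Positions in the tables fit dm6, and coordinates are those of the files. Deposited Cuffdiff comparisons on another gene set hold no row with a CR name and were not used. The libraries of 5 genotypes used gene symbols as identifiers and the 4 of CG9879 and mip40/bam used FBgn numbers, so genes were joined by name and overlapping position. No counts were given. Fragment numbers, 3120000 to 7690000 per library, were estimated from the width of the deposited FPKM intervals. An exact 0 can be a failed estimate, so such genes are said to be listed at 0.

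The 12971 genes that reached FPKM 1 in 2 or more libraries were fitted with limma 3.58.1 in R 4.3.3 on log2(FPKM + 1), over all 7 groups, letting the variance follow the mean level (residual and prior degrees of freedom 7 and 1.82). Tests were two-sided and adjusted over all genes of a comparison, and differences understate the change of low genes. Of the members, 133 (11.3%, against 4.85% of coding genes) would miss the FPKM limit without the libraries of 1 group, and their calls follow from that. The fit was checked on simulated data with changes put only into genes of higher level than most members, so that check does not cover low genes. The members and lists were chosen with earlier results of these data known. Named members are the 6 called genes with the largest change and no overlap between groups in each direction for bam, comr, can and mip40 against wt, the 3 for CG9879 against wt, mip40/bam against bam and comr against can, the 5 highest mean levels, the top 3 of each class, and overlapping pairs with the highest levels or opposite calls. The stretch of the X chromosome and its level set, CR42657, CR42767, CR43239, CR43358 and CR44389 were added after their values were seen. Overlaps, strands and gene types came from Ensembl's BDGP6.54 annotation. Near-identical copies among CR genes were not looked for. Sequences were not used here. Python 3.11.15, pandas 2.3.3, numpy 2.4.6 and matplotlib 3.10.9 made the tables and plots.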

Additional observations from a re-analysis of the deposited data

Results flagged for a closer look

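The interaction term of the limma fit, which compares the mip40 effect with and without bam, passed the threshold for 532 members in the positive and 140 in the negative direction, against 25.9% and 44.1% of all genes tested. Of the 532, 507 were under 1 FPKM in both bam and mip40/bam, and 522 had a lower mean in mip40 than in wt. Among the members named for mip40/bam against bam, the difference of the effects was -3.67 for CR44083, -6.54 for CR45600, -3.5 for CR44029, 6.16 for CR45184, 5.06 for CR44724 and 3.82 for CR44134 (log2). The adjusted p was 0.0427 for CR44083, 1.31e-07 for CR45600, 3.03e-07 for CR44029 and 0.0155 for CR44134. CR45184 and CR44724 passed the FPKM limit only through mip40/bam, so no p is given for them. For genes listed at 0 in whole groups these fitted values are no bounds. In mip40 itself CR44029, CR45184 and CR44724 were listed at 0, as in wt. The part of the annotation, which differs between mip40/bam and the other 3 groups, was not tested. Each of the 6 genes shares exon sequence with a coding gene.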

How the results depend on the processing

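The 82 gene results named kept their direction and call under every alternative run, except Ten-a in bam against wt (-0.09 with median-of-ratios scaling, adjusted p = 0.641, and 0.55 when the 4 accessory gland libraries were left out, adjusted p = 0.0728), CR44134 without mip40/bam replicate 1 (3.04) and CR45233 in comr against can without those 4 libraries (3.66, adjusted p = 0.248). Members named for the largest called changes without overlap were picked from these same data, so such runs could hardly remove their calls. The run with FPKM of at least 5 held 81 of the 82. Counts of members moved by over 1.5 times as follows. With loci of at least 1000 bases, which leaves fewer members, lower and higher were 208 and 57 (bam), 183 and 72 (comr), 118 and 88 (can), 165 and 67 (mip40), 49 and 28 (CG9879) against wt, 29 and 19 for mip40/bam, 38 and 81 for comr, 39 and 203 for can, each against bam, 168 and 44 in comr against can, and 62 and 163 in the interaction. Without members that share exons, also fewer, 76 were higher in bam against wt, 29 lower and 24 higher in mip40/bam against bam, and 47 and 50 lower in comr and can against bam. With FPKM of at least 5, 70 were higher in bam against wt, 28 lower and 26 higher in mip40/bam, 42 and 44 lower in comr and can against bam, and 90 lower in the interaction. With median-of-ratios scaling 103, 118 and 89 were higher in comr, can and mip40 against wt and 82 lower in the interaction. With quantile normalization 176 and 121 were higher in bam and can against wt, 146 lower in comr against bam, 178 lower and 404 higher in can against bam, and 336 lower and 187 higher in comr against can. For CG9879 against wt, a pseudocount of 0.1 gave 88 lower and 43 higher, a fit to these groups alone 32 and 18, and leaving out the 4 libraries 120 higher. The cause of the last 4 kinds of change was not tested.

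Leaving out 1 library gave 683 to 723 lower and 104 to 112 higher (bam), 601 to 627 and 136 to 204 (comr), 377 to 398 and 210 to 217 (can), 539 to 566 and 151 to 173 (mip40), 108 to 131 and 58 to 62 (CG9879) against wt, 29 to 47 and 26 to 31 (mip40/bam), 59 to 72 and 177 to 261 (comr), 69 to 75 and 603 to 652 (can) against bam, 490 to 545 and 80 to 118 in comr against can, and 121 to 147 and 485 to 515 in the interaction. A genotype left with 1 library is assumed to vary like the others.

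Same-numbered libraries deviated together in some genotype pairs and against each other in others (correlations of -0.41 for comr and wt, -0.37 for CG9879 and wt, -0.48 for comr and can, 0.37 for can and wt, 0.135 or less for the others), so the numbers were not taken to pair libraries. With a replicate block, 702 members were lower in bam against wt, 629 lower and 168 higher in comr, 399 and 232 in can, and 141 and 65 in CG9879, and no call of a named gene changed. With the numbers of comr and CG9879 crossed, chosen after seeing the data, the block gave 631 and 166 for comr and 141 and 66 for CG9879 against wt and 550 and 101 for comr against can.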

Other observations

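CR genes were unevenly spread along the chromosomes. Of 409 windows of 250 kb with at least 1 member, which held a median of 2, the fullest was at chr2L:21750001-22000000 (dm6), with 14 members beside 9 protein-coding genes tested. None of the 14 had a mean of 1 FPKM in bam or mip40/bam; 9 were highest in wt or CG9879 and 5 in comr, can or mip40. CR44217 had means of 0.263 FPKM in bam, 2.97 in comr, 30.5 in can and 65.0 in wt, and CR44269 had 0.0944, 0.104, 43.5 and 24.1. The window was chosen after the counts were seen.

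Besides the members named above, the 18 genes high in the 4 libraries with accessory gland transcripts include CR43634, with 154 FPKM in comr 2, 55.9 in CG9879 2, 19.4 in can 1 and 14.98 in wt 1, and at most 3.27 in the other 10 libraries. CR45013 had 62.2, 26.1, 36.3 and 21.0 FPKM in these 4 libraries and was listed at 0 in the other 10. CR44480 had 44.8, 26, 21.5 and 16.3 FPKM there and at most 2.81 elsewhere.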
